A study of Mus musculus with 54 samples.

Results

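The 36 genes described here are interferon-stimulated genes of the type I response, chosen by name, and all 36 of the listed genes were among the 16772 genes measured in mouse prostate tumours. Type I interferons are secreted when a cell senses viral or misplaced nucleic acid. They bind the receptor encoded by Ifnar1 and Ifnar2, and a complex that includes Stat2 and Irf9 then enters the nucleus and binds an element found in front of the responding genes. Those genes encode sensors of foreign RNA, enzymes that block translation or degrade RNA, the ubiquitin-like modifier Isg15 and factors that sustain the response. In solid tumours the same genes are read both in tumour cells and in infiltrating immune cells.

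Bulk RNA sequencing was done on 54 libraries of prostate tumour tissue from 48 mice, which fell into 11 groups. The DKO model, and DKO mice with Ezh2 deletions named DKO_EE and DKO_EP, were sampled intact at 12 weeks, intact at endstage, and at endstage after castration at 12 weeks. A castrated TKO model was treated with CPI1688, an inhibitor of Ezh2, or with vehicle. Ezh2 is the enzyme subunit of Polycomb repressive complex 2 that methylates histone H3. At 12 weeks there were 4 mice each of DKO, DKO_EE and DKO_EP. The intact endstage groups were 3 DKO mice of 35 to 46 weeks, 8 DKO_EE mice of 28 to 42 weeks and 3 DKO_EP mice of 39 to 52 weeks. The castrated groups were 4 DKO mice of 39 to 99 weeks, 5 DKO_EE mice of 35 to 59 weeks and 5 DKO_EP mice of 34 to 37 weeks. The TKO groups were 4 mice of 15 to 19 weeks with vehicle and 4 mice of 18 to 19 weeks with CPI1688. The labels do not say which genes the DKO and TKO models lack, what EE and EP stand for, or which promoter drives a deletion, and every DKO_EE and DKO_EP mouse also carries the DKO alleles. Of the mice, 6 gave 2 libraries each, from pieces lettered AP, DP or LP, and these were averaged, so that the mouse is the replicate. Replicate numbers below count the mice of a group in the order of the labels, not the libraries.

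Libraries held 3687048 to 9741808 reads over the table. The luminal keratin gene Krt8 was between 9.58 and 14.04 on the log2 scale in every mouse, while Pbsn, a secretory gene of normal prostate, was at 0 in every library of 7 of the 8 endstage and TKO groups. Neuroendocrine marker genes averaged lowest at 12 weeks, and the mean over 8 of them, each centred on its mean over all mice, was -4.14 in DKO at 12 weeks against 1.36 in DKO at intact endstage. As a check of the genotype label, Ezh2 at intact endstage averaged 8.28 in DKO_EE and 9.61 in DKO, a log2 fold change of -1.34 (SE 0.26, adjusted p = 0.0194). The Ezh2 difference of DKO_EE from DKO was -0.80 at 12 weeks (adjusted p = 0.975) and -0.90 after castration (adjusted p = 0.0831) and did not pass. That of DKO_EP from DKO passed in no setting, at -0.18, -0.22 and -0.19 at 12 weeks, at intact endstage and after castration (adjusted p = 0.991, 0.999 and 0.758), so Ezh2 RNA does not check the DKO_EP label. Lars2, which encodes a mitochondrial tRNA synthetase, took over 10% of the reads in 5 of 12 DKO_EE and 5 of 5 DKO_EP intact endstage libraries, against at most 0.0258% in DKO. Intact and castrated libraries also stood apart: 257 genes were higher in every intact library and 139 were higher in every castrated library, and 42 of these 396 genes were listed at 0 in every library of the other kind. None of the 36 interferon response genes was among these 396 of the 16772 genes. At so small a share of all genes, that absence does not show that the 36 were spared.

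The sequence in front of these genes was not used to choose them, but they were chosen as known interferon-stimulated genes. A high share with the motif could thus be foreseen and says nothing of these tumours. Interferon-stimulated response elements hold paired GAAA blocks, so the motif GAAA, any 2 bases (NN), GAAA was searched on both strands, overlaps allowed, from 250 bases before to 50 bases after the start site, in RefSeq promoters of GRCm38.p6. Of the 36 genes, 27 matched a promoter and 13 of those held the motif (48.1%), against 3.73% of the 13056 genes of the table with a promoter and 3.44% of all windows of that length. The stretches below are shown because they hold the motif upstream of genes whose values are described in the results. Capitals mark each match and its overlaps (GAAA blocks, or TTTC blocks where the match lies on the other strand), and each is written 5′ to 3′ on the strand of the gene.
Isg15: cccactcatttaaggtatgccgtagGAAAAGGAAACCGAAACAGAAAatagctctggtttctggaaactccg
Ifit1: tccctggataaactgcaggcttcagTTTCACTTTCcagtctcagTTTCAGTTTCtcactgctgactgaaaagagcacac
Ifit3: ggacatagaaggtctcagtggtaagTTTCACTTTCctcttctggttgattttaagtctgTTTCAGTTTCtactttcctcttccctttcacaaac
Oas1a: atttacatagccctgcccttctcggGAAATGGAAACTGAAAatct
Oas3: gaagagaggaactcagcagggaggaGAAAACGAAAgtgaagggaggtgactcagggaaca
Gbp3: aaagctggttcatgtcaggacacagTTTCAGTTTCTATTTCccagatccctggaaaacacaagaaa
The stretches lie at chr4:156200850-156200921 (minus strand) for Isg15, chr19:34640760-34640838 (plus) for Ifit1 and chr19:34583348-34583441 (plus) for Ifit3. Those of Oas1a, Oas3 and Gbp3 lie at chr5:120907526-120907570 (minus), chr5:120777700-120777759 (minus) and chr3:142559974-142560039 (plus). In Isg15 3 overlapping matches form one run that begins 78 bases before the start site, in Oas1a 2 overlapping matches begin 20 bases before it, and in Ifit1 and Ifit3 2 separate matches face the other strand. No match was found in the windows of Adar, Oasl2, Oasl1, Irf7, Dtx3l and Trim25, which says only that these letters are not in those windows.

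A score per mouse was taken as the mean over the 36 genes of the log2 value minus the mean of that gene over the 48 mice, where the log2 value is log2 of a normalized count plus 1. The genes moved together across mice: the first principal component held 76.7% of their variance, and 71.1% after each group's mean was removed, and all 36 loaded with the same sign in both cases. The score was highest in DKO_EE at 12 weeks, at 1.35 ± 0.74 (SD, n = 4), followed by DKO_EP at 0.87 ± 0.35 (SD, n = 4) and DKO at 0.56 ± 0.52 (SD, n = 4). It was lowest in DKO at intact endstage, at -0.90 ± 0.27 (SD, n = 3), then DKO_EP at -0.67 ± 0.10 (SD, n = 3), while DKO_EE was at -0.14 ± 0.24 (SD, n = 8). At intact endstage the lowest DKO_EE mouse, at -0.51, lay above the highest DKO mouse, at -0.64, and the highest DKO_EP mouse, at -0.56.
After castration the genotypes overlapped widely, with scores of -1.33 to 0.60 in DKO, -1.18 to 0.80 in DKO_EE and -1.31 to 0.33 in DKO_EP. In castrated TKO mice the vehicle group scored -0.05 ± 0.54 (SD, n = 4) and the CPI1688 group -0.51 ± 0.48 (SD, n = 4). Neighbouring groups in this order mostly overlapped, and no test was made on the score.

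**Figure D1:**
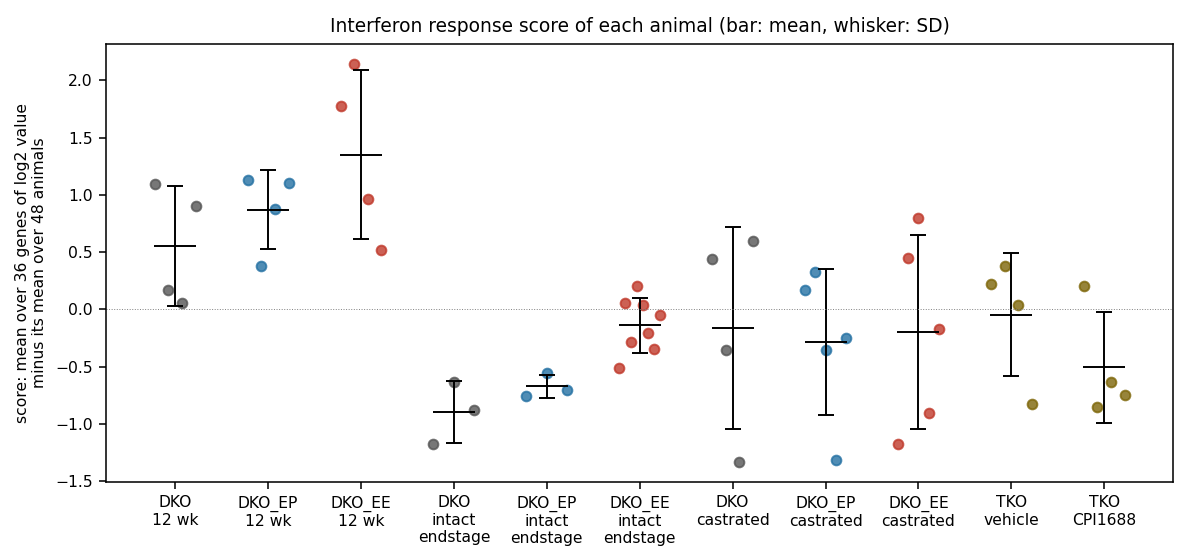
Score of each of 48 mice (vertical axis: mean over 36 genes of the log2 value minus its mean over all mice) by group (horizontal axis), with a bar at the group mean and a whisker of 1 SD. The 12-week mice lie at 0.05 or above, the intact endstage DKO_EE mice at -0.51 to 0.20 lie above all DKO and DKO_EP mice of that stage, and the castrated groups span the widest range.

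All 36 genes had their highest group mean in DKO_EE at 12 weeks, and 22 of the 36 had their lowest in DKO at intact endstage. The spread over the 48 mice was largest for Ifit3, a gene of the IFIT family, with an SD of 1.66 on the log2 scale. It was smallest for Adar, which edits adenosine to inosine in double-stranded RNA. Every gene was above 0 in every mouse. The fewest reads of any gene in any library were 8, for Isg15, so its lowest values carry counting error as well.

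**Figure D2:**
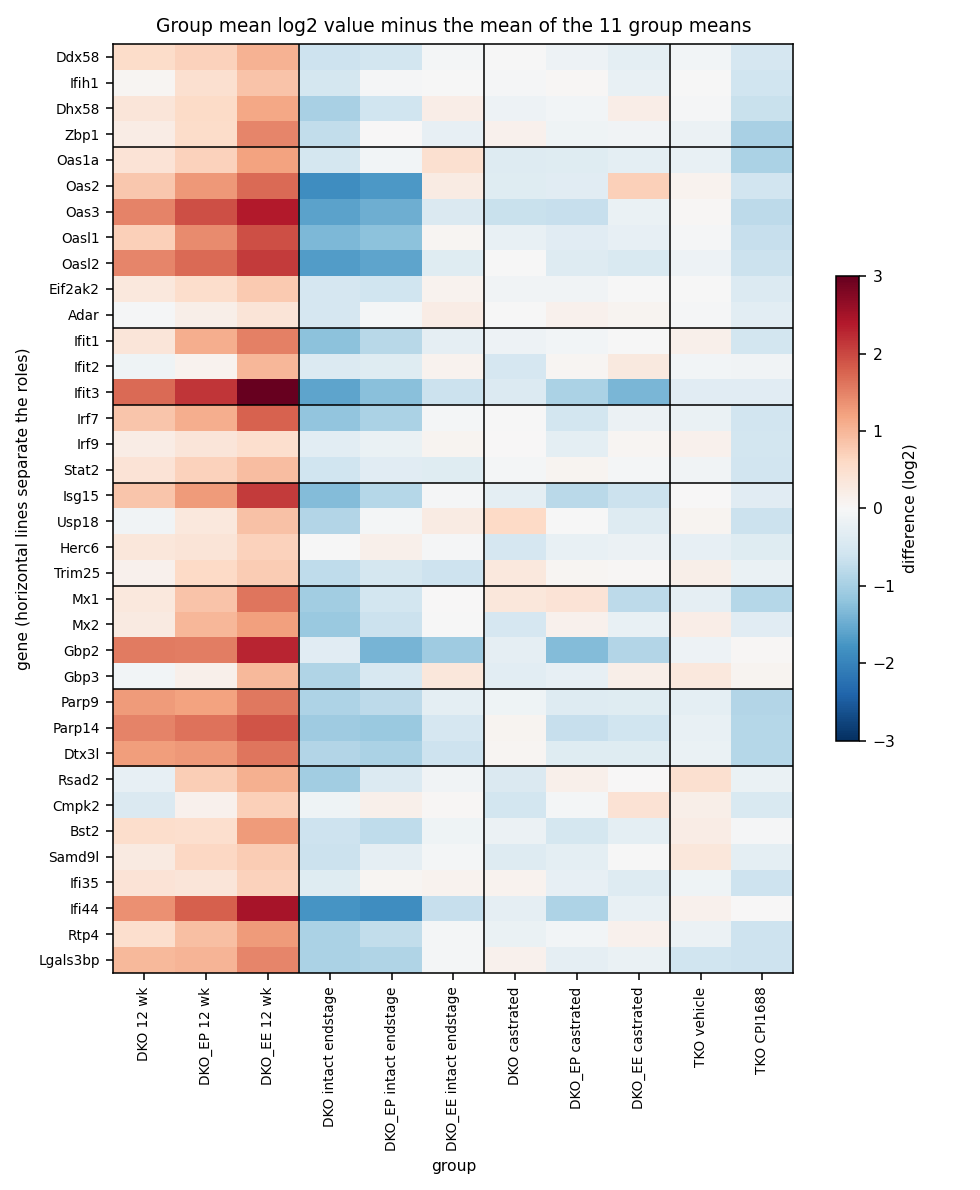
Group mean log2 value of each of the 36 genes (rows, ordered by role) minus the mean of its 11 group means, in the 11 groups (columns). The 12-week columns are high in nearly all rows and the intact endstage DKO column holds the lowest mean of 22 genes.

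At 12 weeks the question was whether the Ezh2 alleles changed these genes before castration or endstage. The test was limma with Benjamini-Hochberg adjustment over every gene tested and a threshold of 0.05. For DKO_EE against DKO, for DKO_EP against DKO, and between DKO_EE and DKO_EP, 0 of the 36 passed, and 0% of all genes tested passed in either direction. At an unadjusted p under 0.05 the number of the 36 was 15, 0 and 2 in these comparisons, out of 796, 449 and 593 of all 16626 genes. The log2 difference of DKO_EE from DKO was above 0 for 36 of 36 genes, with a median of 0.80 against 0.01 over all genes. The difference of DKO_EP from DKO was above 0 for 32 of 36, with a median of 0.28 against -0.02. For 32 of the 36 genes the group means rose in the order DKO, DKO_EP, DKO_EE. These comparisons share their groups, so their medians are not independent. DKO replicates 1 to 3 had identifiers lettered T, while DKO replicate 4 and all DKO_EE and DKO_EP mice of this age had DKOE. In comparisons with DKO at 12 weeks these letters thus went mostly with genotype.
The largest difference of DKO_EE from DKO was 1.32 for Rsad2 (SE 0.59, adjusted p = 0.975), the gene of the antiviral enzyme viperin, and the value for Ifit3 was 1.29 (SE 0.53, adjusted p = 0.975). Ifit3 measured 11.21, 9.73, 9.47 and 10.27 in the 4 DKO mice, 11.05, 10.07, 10.42 and 10.93 in DKO_EP, and 11.94, 12.87, 10.74 and 10.28 in DKO_EE. A pair of DKO_EE mice were above all others and the other two lay within the range of DKO.
Skeletal muscle genes differed at the same age: all 7 on the marker list were lower in every DKO_EE mouse than in every DKO mouse, and Ttn, the muscle titin gene, reached 2.55% of reads. Marker genes of neutrophils had a median difference of 1.56 in DKO_EE against DKO with 7 of 7 above 0, and those of macrophages 0.51 with 11 of 12 above 0. Their part in the result was not tested.

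In intact endstage tumours some of these genes were higher in DKO_EE than in DKO. Their count did not hold with age as a covariate or without DKO replicate 1, as described below. Most of those that passed belonged to the oligoadenylate synthetase and double-stranded RNA group, which also holds Adar and Eif2ak2. Of the 36 genes, 9 were higher and 0 lower in DKO_EE than in DKO, while 1.12% of all genes tested were higher and 0.541% lower. The median log2 difference over the 36 was 0.82 against -0.03 over all genes, and 34 of the 36 differences were above 0. In 13 of the 36 every DKO_EE mouse lay above every DKO mouse, which was so for 3.22% of all genes tested.
In bulk tissue, more cells of a type and more RNA per cell cannot be told apart.
Of the 7 genes of the oligoadenylate synthetase and double-stranded RNA group, 5 were higher: Adar, Oas2, Oasl2, Oas1a and Oasl1.

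Adar (chromosome 3, 89715022 to 89753446, GRCm38) measured 9.71, 9.96 and 9.98 in the 3 DKO mice, and 10.35 at the lowest, 10.57 at the median and 10.96 at the highest of the 8 DKO_EE mice. All DKO mice were below all DKO_EE mice, and the 3 DKO_EP mice, at 10.34, 10.35 and 10.25, lay between the other two groups, close to the lowest DKO_EE mouse. The difference of DKO_EE from DKO was 0.73 (SE 0.13, adjusted p = 0.013). The Adar locus overlaps Chrnb2 on the opposite strand, so without stated strand use their reads may be mixed.
Oas2 (chromosome 5, 120730333 to 120749853), an enzyme that makes the messenger that activates RNase L, measured 7.34, 8.49 and 7.34 in DKO, and 8.80, 9.78 and 10.80 at the lowest, median and highest of DKO_EE. It was 8.21, 8.22 and 7.20 in DKO_EP. DKO and DKO_EP overlapped, and both lay below every DKO_EE mouse. The difference from DKO was 2.13 (SE 0.39, adjusted p = 0.0172), the largest of the 36.
Oasl2 (chromosome 5, 114896936 to 114912234), a relative of these enzymes, measured 7.98, 8.76 and 7.89 in DKO, 8.47, 8.33 and 8.08 in DKO_EP, and 9.03, 9.53 and 10.06 at the lowest, median and highest of DKO_EE. Again no DKO_EE mouse overlapped the others. The difference from DKO was 1.31 (SE 0.24, adjusted p = 0.0172).
Gbp3 (chromosome 3, 142560026 to 142573209), a guanylate-binding GTPase, measured 7.70, 7.91 and 7.30 in DKO, 7.71, 8.18 and 8.24 in DKO_EP, and 7.94, 8.94 and 9.38 at the lowest, median and highest of DKO_EE. The lowest DKO_EE mouse lay just above DKO and within DKO_EP. The difference from DKO was 1.23 (SE 0.25, adjusted p = 0.0248). Guanylate-binding genes are a family of near copies, so reads could be split among them by the counting.

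The other called genes were a further pair of the oligoadenylate synthetase and double-stranded RNA group and single genes of 3 other roles. Oasl1 differed by 1.41 (adjusted p = 0.0397) and Oas1a by 1.02 (adjusted p = 0.0281), and Oas1a has a near copy in Oas1g. Among the 3 genes of the IFIT family, which bind foreign RNA ends, Ifit1 was higher by 0.95 (adjusted p = 0.0264). Of the transcription factors, Irf7, which amplifies interferon production, was higher by 1.12 (adjusted p = 0.0424), and its locus overlaps Phrf1, so without stated strand use their reads may be mixed. Usp18, which removes Isg15 from proteins and damps receptor signalling, was higher by 1.12 (adjusted p = 0.0351), although a DKO_EE mouse overlapped DKO. Stat2 and Irf9, which act in the same transcription factor complex, differed by 0.23 and 0.41 and did not pass (adjusted p = 0.686 and 0.228).
No gene passed among the 4 sensors, the 3 ADP-ribosylation genes or the 8 other effectors. The sensor gene Dhx58 was 1.18 (adjusted p = 0.0661), and Isg15 itself was 1.26 (SE 0.36, adjusted p = 0.0967). Gbp2, at -0.72 (adjusted p = 0.45), and Herc6, at -0.03 (adjusted p = 0.973), were the 2 genes with a difference below 0.

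**Figure D3:**
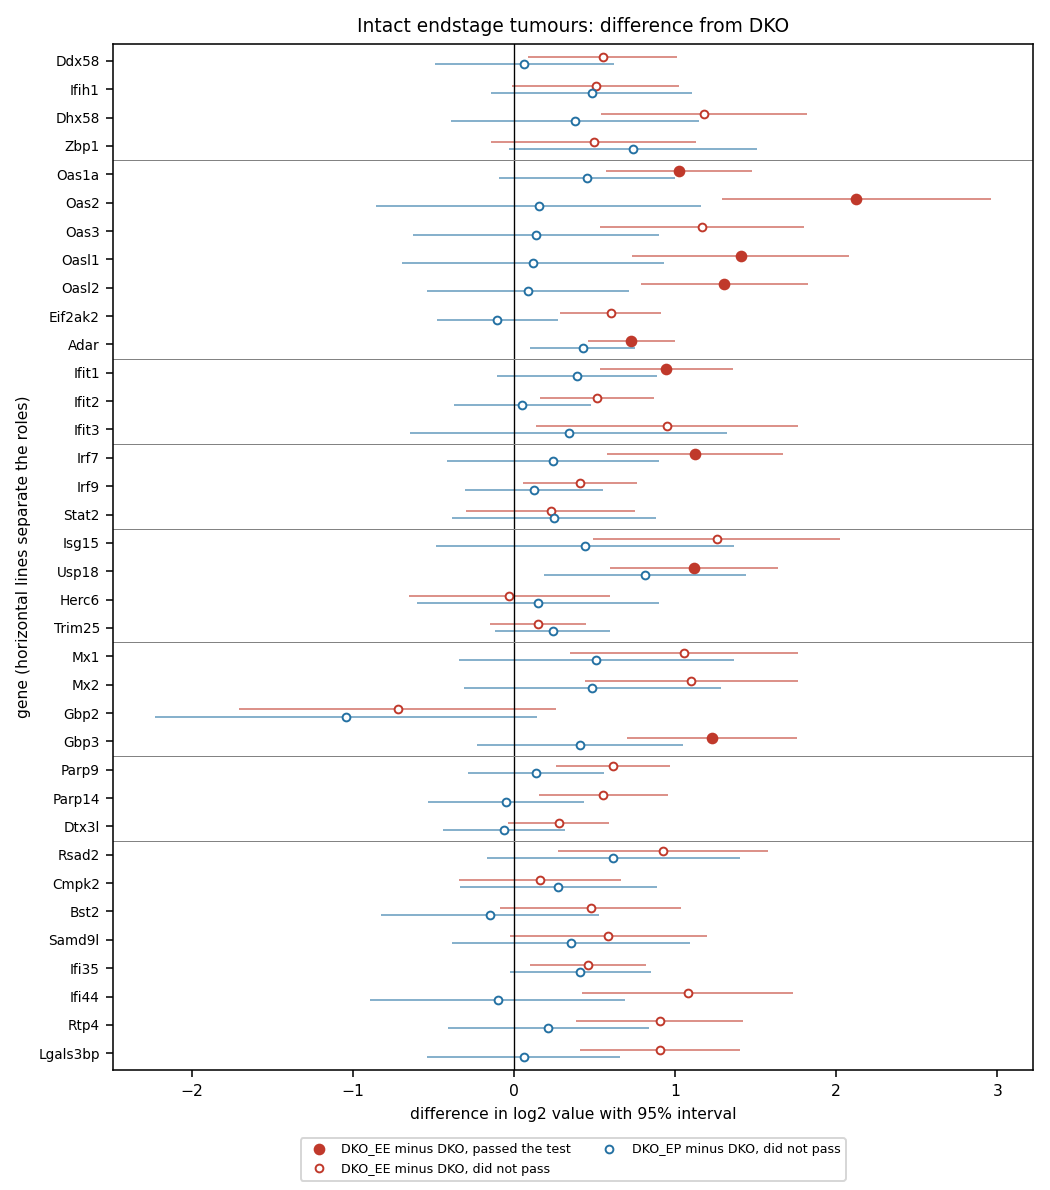
Difference in log2 value from DKO at intact endstage for each of the 36 genes (vertical axis, ordered by role), with its 95% interval on the horizontal axis, for DKO_EE (red) and DKO_EP (blue); filled points passed the test. The 9 filled points are all DKO_EE, Oas2 lies farthest right at 2.13, and the DKO_EP points centre near 0.24.

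At the same stage 0 of the 36 genes passed in DKO_EP against DKO (2 at an unadjusted p under 0.05). Of all genes tested 0% passed in either direction, and the median was 0.24 against -0.02 over all genes. DKO had the lowest mean of the 3 genotypes in 29 of the 36 genes, DKO_EP in 6 and DKO_EE in 1. With 3 mice in each group, a count of 0 does not show that DKO_EP lacked the difference. Against DKO_EP, DKO_EE was higher in 3 of the 36 and lower in none, with 0.986% of all genes higher and 0.643% lower. These were Oas2, by 1.97 (SE 0.39, adjusted p = 0.0212), Oasl2, by 1.22 (SE 0.24, adjusted p = 0.0215), and Eif2ak2, by 0.70 (SE 0.15, adjusted p = 0.0249). Eif2ak2 (chromosome 17, 78852564 to 78882573) encodes the kinase PKR, which stops translation when it binds double-stranded RNA. It measured 9.66, 9.40 and 9.55 in DKO_EP, 9.49, 9.74 and 9.68 in DKO, and 9.82, 10.26 and 10.52 at the lowest, median and highest of DKO_EE. Every DKO_EE mouse was above both other groups. In 9 of the 36 genes DKO_EE did not overlap DKO_EP and was higher, against 2.88% of all genes. The comparisons with DKO and with DKO_EP share the DKO_EE mice.

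These counts at intact endstage rest on few mice. The count against DKO was 0 without DKO replicate 1, 1 without DKO replicate 3, 3 without DKO_EE replicate 5 and 5 without DKO_EE replicate 2, and it was 0 with age as a covariate and 0 without the libraries over 10% Lars2. That against DKO_EP was 0 with age as a covariate, 0 without DKO_EP replicate 2, 0 without DKO_EP replicate 3 and 1 without DKO_EP replicate 1. In the 8 DKO_EE mice, in order of their share of Lars2 reads, the scores were -0.51 at 0.0659%, -0.34 at 0.101%, 0.06 at 1.43%, -0.29 at 3.03%, -0.05 at 9.48%, -0.21 at 9.63%, 0.04 at 16.8% and 0.20 at 35.3%. Scores tended to rise with the share, though not at every step. The mice at 0.0659% and 0.101% had the lowest scores and the mouse at 35.3% the highest. The 3 DKO_EP mice, at 14.2% to 19.1% Lars2, had scores of -0.75 to -0.56. The part of Lars2 in the result was not tested further.

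No immune cell marker passed as higher in DKO_EE against DKO at intact endstage. Of 12 macrophage genes 0 were higher and 2 lower, with a median of -1.02, and of 15 T and NK cell genes 0 passed in either direction, with a median of -1.08. The summed macrophage level on the log2 scale was 13.02 to 13.62 in DKO and 10.90 to 13.26 in DKO_EE, and that of T and NK cells was 7.46 to 8.11 in DKO and 7.53 to 10.36 in DKO_EE. The sum and the median of the T and NK list thus went opposite ways, and Gzma, a granzyme gene, had the largest difference above 0 on that list, 2.75 (adjusted p = 0.0838). The part of these cells in the result was not tested. Of 7 neutrophil genes only Ly6g, a defining gene of these cells, was at 0 in every library of both groups. The summed neutrophil level was 6.93 to 8.38 in DKO and 5.58 to 7.28 in DKO_EE. The part of neutrophils was not tested either.

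The pieces of one mouse could differ as much as genotypes did. Single libraries at intact endstage also had piece letters: PT, DP and AP-DP in DKO, PT or AP in DKO_EE, and DP in DKO_EP. The genotypes were thus compared on pieces with unlike letters. Among the 6 mice with 2 pieces, the score differed by 1.07 between the DP and AP pieces of DKO_EE replicate 6, with 34 of 36 genes higher in DP, and Lars2 took 18.7% of reads in DP and 0.534% in AP. The DP piece of DKO_EE replicate 7 was lower than its LP piece by a score difference of -0.63, with 33 of 36 genes lower. In DKO_EP replicate 1 the AP piece was higher by 0.43, and in DKO_EP replicate 2 the DP piece differed from AP by -0.51. The pieces of DKO_EE replicates 5 and 8 differed by -0.03 and -0.25. No letter was the higher one throughout.

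From 12 weeks to intact endstage the interferon response genes fell in all 3 genotypes. In DKO 21 of the 36 fell and 0 rose, with a median log2 difference of -1.26, in DKO_EE 28 fell and 0 rose, with -1.36, and in DKO_EP 21 fell and 0 rose, with -1.26. Over all genes, 18.7%, 27% and 22.9% fell and 18%, 23.6% and 21.3% rose, with medians of -0.04, -0.07 and -0.06. In 25, 14 and 27 of the 36, every endstage mouse lay below every 12-week mouse, against 26.2%, 14.5% and 25.2% of all genes. The endstage mice were also older, by design, so that age and stage cannot be told apart. In all 3 genotypes 19 genes fell, and 8 genes passed in none: Adar, Cmpk2, Gbp3, Herc6, Irf9, Oas1a, Samd9l and Usp18.

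The 3 ADP-ribosylation genes fell in every genotype. Dtx3l (chromosome 16, 35926511 to 35939151), a ubiquitin ligase that pairs with Parp9, measured 11.46, 11.39, 11.34 and 12.03 in DKO at 12 weeks and 8.93, 9.69 and 9.60 at endstage. In DKO_EE it went from 11.99, 12.46, 11.81 and 11.38 to 9.55, 9.70 and 9.81 at the lowest, median and highest of 8 mice. In DKO_EP it went from 11.80, 11.32, 11.38 and 11.84 to 9.15, 9.55 and 9.34. No endstage mouse reached the 12-week values of its genotype. Dtx3l fell by 2.15 in DKO, 2.22 in DKO_EE and 2.24 in DKO_EP (adjusted p = 2.32e-07, 1.2e-09 and 1.38e-07), with an SE of 0.27, 0.22 and 0.27.
Parp9 (chromosome 16, 35938470 to 35972605), its partner, measured 11.04, 10.85, 10.76 and 11.47 in DKO at 12 weeks and 8.32, 9.22 and 8.97 at endstage. The 12-week DKO_EE mice were at 11.54, 11.78, 11.37 and 10.69, and those at endstage were at 9.29, 9.45 and 9.69 at the lowest, median and highest. The DKO_EP mice were at 11.34, 10.67, 10.62 and 11.24 and then at 8.74, 9.12 and 9.06. The stages did not overlap in any genotype. Parp9 fell by 2.19 in DKO, 1.89 in DKO_EE and 1.99 in DKO_EP (adjusted p = 3.39e-06, 4.83e-07 and 1.14e-05). The loci of Parp9 and Dtx3l overlap head to head, so their counts may share reads.
Parp14 (chromosome 16, 35832874 to 35871544), an ADP-ribosyltransferase, measured 12.27, 11.94, 11.95 and 12.70 in DKO at 12 weeks and 9.31, 10 and 9.67 at endstage. The DKO_EE mice were at 12.82, 13.25, 12.50 and 11.88 and then at 9.91, 10.16 and 10.73 at the lowest, median and highest. The DKO_EP mice were at 12.73, 12.00, 12.18 and 12.55 and then at 9.26, 9.71 and 9.87. Here too the stages did not overlap. Parp14 fell by 2.56, 2.40 and 2.75 in DKO, DKO_EE and DKO_EP (adjusted p = 2.86e-05, 1.35e-06 and 8.2e-06).

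In the oligoadenylate synthetase and double-stranded RNA group 5 of 7 fell in each genotype: Oas2, Oas3, Oasl1, Oasl2 and Eif2ak2. Oas3 (chromosome 5, 120753098 to 120777661) measured 10.55, 9.05, 8.93 and 10.16 in DKO at 12 weeks and 6.03, 6.67 and 7.03 at endstage. In DKO_EP it measured 10.64, 9.16, 10.19 and 10.42 and then 6.56, 7.43 and 6.14, and in DKO_EE 11.32, 11.59, 9.89 and 9.44 and then 7.09, 7.77 and 8.14 at the lowest, median and highest. The stages were apart in every genotype, and Oas3 fell by 3.10, 2.82 and 3.39 in DKO, DKO_EE and DKO_EP (adjusted p = 5.19e-05, 4.5e-06 and 1.19e-05).
Oas2 fell by 1.44 in DKO_EE (SE 0.57, adjusted p = 0.0337), against 2.68 in DKO (adjusted p = 0.00299) and 3.02 in DKO_EP (adjusted p = 0.000791). Whether the change differed between DKO_EE and DKO was tested as an interaction over all genes, and none of the 36 passed (0 at an unadjusted p under 0.05), with 0.0954% of all genes above and 0.0298% below.

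Ifit3 (chromosome 19, 34583531 to 34588731) had the widest range of all. At endstage it measured 6.63, 7.21 and 6.81 in DKO, 6.66, 7.48 and 7.53 in DKO_EP, and 6.57, 7.82 and 8.97 at the lowest, median and highest of DKO_EE, all below the 12-week values given before. It fell by 3.29, 3.39 and 3.63 in DKO, DKO_EP and DKO_EE (adjusted p = 0.000276, 0.000145 and 1.82e-06), with an SE of 0.69, 0.69 and 0.55. Its near copy Ifit3b, from a list of other interferon-stimulated genes, fell by 3.49, 4.04 and 3.91, and reads could be shared between them.
Trim25 (chromosome 11, 88999376 to 89020293), a ligase that activates the RNA sensor encoded by Ddx58, measured 10.66, 10.32, 10.50 and 10.52 in DKO at 12 weeks and 9.45, 9.63 and 9.75 at endstage. The DKO_EE mice were at 10.95, 11.87, 10.70 and 11.05 and then at 9.46, 9.77 and 10.06 at the lowest, median and highest. The DKO_EP mice were at 10.61, 10.67, 11.67 and 10.89 and then at 10.06, 9.74 and 9.74. The stages did not overlap. Trim25 fell by 0.89, 1.38 and 1.11 in DKO, DKO_EE and DKO_EP (adjusted p = 0.00136, 8.57e-08 and 9.6e-05).
Of the other roles, Isg15 fell by 2.13, 2.14 and 2.14 (adjusted p = 0.0492, 0.00978 and 0.0419) in DKO, DKO_EE and DKO_EP. Irf7 fell by 2.02, 1.83 and 2.04 (adjusted p = 0.0128, 0.00355 and 0.01), and Stat2 by 1.01, 1.28 and 1.03. Ifi44, whose product is a cytoplasmic antiviral protein, fell by 3.13, 3.15 and 3.65. All 4 sensors fell in DKO_EE, against Ddx58 and Dhx58 in DKO and Ddx58 in DKO_EP.

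**Figure D4:**
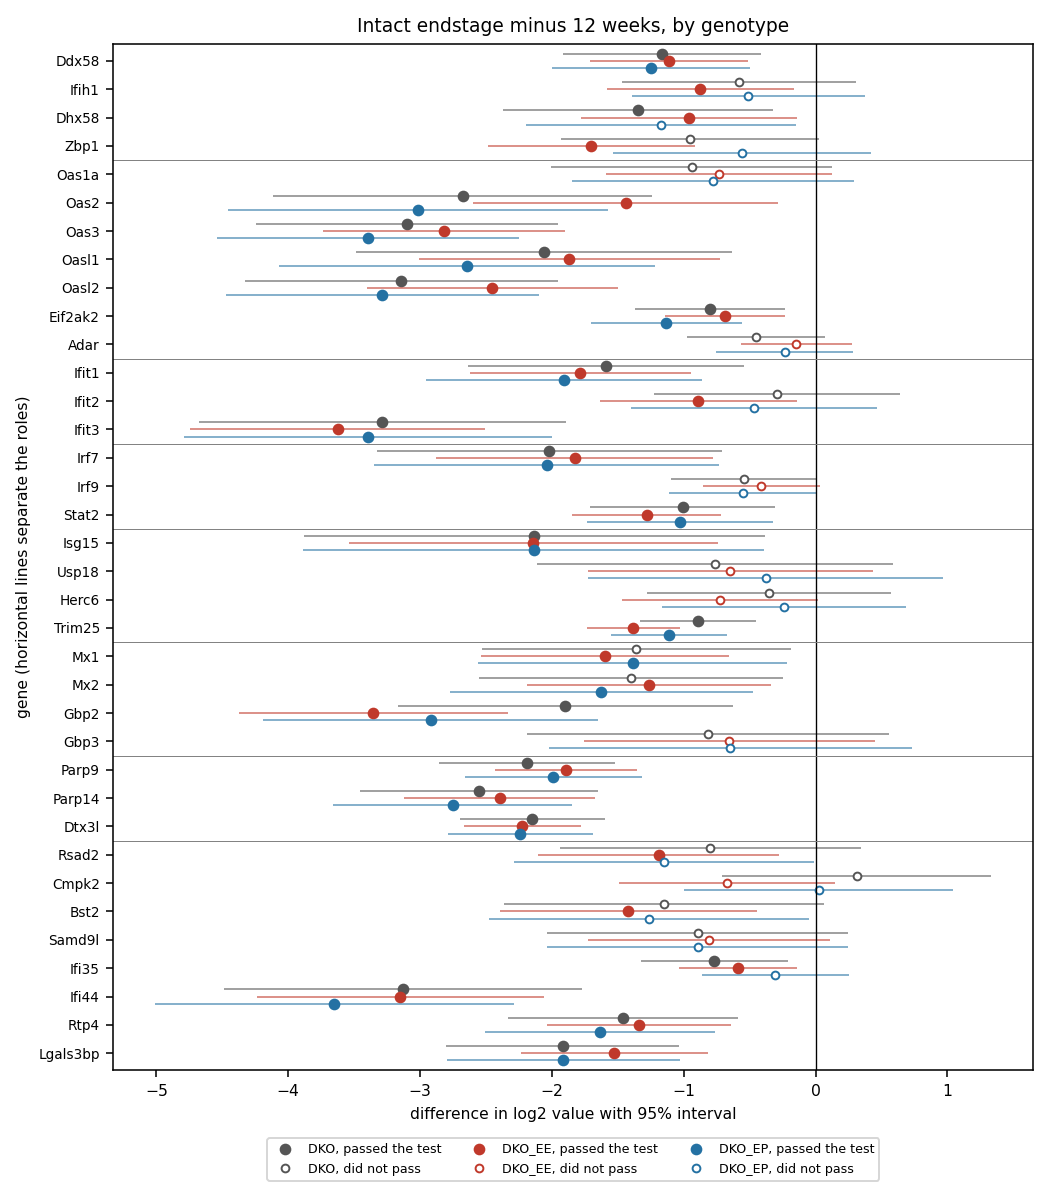
Difference in log2 value between intact endstage and 12 weeks for each of the 36 genes (vertical axis, ordered by role), with its 95% interval on the horizontal axis, in DKO (grey), DKO_EE (red) and DKO_EP (blue); filled points passed the test. All points except those of Cmpk2 in DKO and DKO_EP lie below 0, the points of Ifit3 and Ifi44 lie below -3 in all 3 genotypes, and Oas2 lies at -1.44 in DKO_EE against -2.68 in DKO and -3.02 in DKO_EP.

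Other parts of the tissue moved in the same comparison. All 8 neuroendocrine marker genes rose in each genotype, by medians of 6.03, 5.11 and 6.79 in DKO, DKO_EE and DKO_EP. Of 15 T and NK cell markers 4, 11 and 9 fell, and Gzma alone rose, in DKO_EE and DKO_EP. Of 12 macrophage markers 0, 7 and 3 fell. The summed macrophage level was 12.48 to 13.46 at 12 weeks and 13.02 to 13.62 at endstage in DKO, 12.61 to 14.48 and 10.90 to 13.26 in DKO_EE, and 12.19 to 13.56 and 11.50 to 12.54 in DKO_EP. The summed T and NK cell level was 7.79 to 9.16 at 12 weeks and 7.46 to 8.11 at endstage in DKO, 7.99 to 9.25 and 7.53 to 10.36 in DKO_EE, and 7.49 to 8.77 and 7.37 to 8.26 in DKO_EP. The stages overlapped in each genotype, with means of 8.53 and 9.11 in DKO_EE.
Skeletal muscle genes were high in part of the 12-week mice, and the 2 DKO mice with Ttn over 1% of reads had scores of 1.10 and 0.91, against 0.17 and 0.05 in the other two. Without 12-week mice over 1% Ttn, the count in DKO was 9 in place of 21, while it was 19 in DKO_EP, and no DKO_EE mouse was over that limit. In DKO_EP the 2 mice over that limit had scores of 0.38 and 1.10 and the other two 1.13 and 0.87. Without DKO intact endstage replicate 1 the DKO count was 13, and without DKO_EE 12-week replicate 2 that of DKO_EE was 18. The parts of these tissues in the fall were not tested.

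Upstream of these genes, Ifnb1, the interferon beta gene, was low throughout, with a highest log2 value of 2.73 in any mouse. Of 21 listed ligand genes 2 were analysed here, and the other was Ifne, an epithelial interferon, which from 12 weeks to intact endstage fell by 3.21 in DKO and fell by 2.35 in DKO_EE (adjusted p = 0.00156 and 0.00234). In DKO_EP Ifne measured 2.61, 3.24, 3.98 and 2.03 at 12 weeks and was at 0 in all 3 endstage mice (adjusted p = 0.00261). Of 15 receptor and signalling genes 9, 15 and 11 fell and none rose. Ifnar1 fell by 0.75 in DKO_EE and 0.51 in DKO_EP and was -0.28 in DKO (adjusted p = 0.195), and Ifnar2 fell by 1.26 and 1.64 and was -0.69 (adjusted p = 0.109). Irf1 fell by 0.71 in DKO and 0.95 in DKO_EE and was -0.18 in DKO_EP (adjusted p = 0.533).
Of 14 sensors and adaptors 8, 13 and 9 fell, among them Tlr3, a receptor for double-stranded RNA, by 2.53, 2.91 and 2.01. Of 22 genes of class I antigen presentation 14, 13 and 7 fell, among them Tapbp, which loads peptide, by 2.14, 1.93 and 1.43. Of 20 genes linked to interferon gamma 7, 19 and 7 fell, among them the chemokine gene Cxcl10 by 3.16, 3.90 and 3.13. Of 14 inhibitors and nucleases 2, 5 and 2 fell and 4, 3 and 3 rose. Samhd1, which degrades nucleotides, was among those that fell, and Rnaseh2a, a subunit that removes ribonucleotides from DNA, among those that rose.

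At intact endstage the same upstream lists were compared between DKO_EE and DKO. Ifnlr1, the specific receptor chain for interferon lambda, was higher in DKO_EE by 1.14 (adjusted p = 0.041), and Ifnar1 and Ifnar2 were at -0.25 and -0.26 (adjusted p = 0.256 and 0.671). Of 50 other interferon-stimulated genes 3 were higher and 0 lower: Apol9a by 2.68, Lgals9 by 2.33 and Apol9b by 2.54 (adjusted p = 0.0046, 0.00488 and 0.00789), and Apol9a and Apol9b are near copies. Of 21 class I genes only H2-D1 passed, higher by 0.99 (adjusted p = 0.0392), and 0 of 20 interferon gamma-linked genes did, with a median of -0.33.

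After castration no genotype difference was found in these genes. The castrated DKO mice had identifiers lettered DKO, and the castrated DKO_EE and DKO_EP mice had identifiers lettered DKOE. Genotype and these letters, whose meaning the labels do not give, cannot be told apart in comparisons with castrated DKO. The DKO mice were also older, at a mean of 68 weeks against 43.8 in DKO_EE and 35.4 in DKO_EP. Of the 36, 0 passed in DKO_EE against DKO, where 3.42% of all genes were higher and 4.3% lower. Likewise 0 passed in DKO_EP against DKO, with 0.0181% and 0.0121% of all genes, and 0 between DKO_EE and DKO_EP, with 0.707% and 0.99%. In each of them 0 of the 36 had an unadjusted p under 0.05. The medians over the 36 were -0.01, -0.07 and 0.08 and those over all genes were 0.00 to 2 decimals. Castrated DKO replicate 2, of 99 weeks, had a mean of -6.31 over the neuroendocrine marker genes, centred as before. The other castrated DKO mice were at 1.60 to 1.79, and those of DKO_EE and DKO_EP at 1.19 to 2.21. The counts stayed at 0 when any 1 mouse was left out. The mice of one group differed widely: Oas2 measured 10.67, 9.04, 6.73 and 10.47 in castrated DKO, 10.92, 9.64, 8.05, 8.10 and 9.59 in DKO_EP, and 9.03, 10.56, 11.71, 9.47 and 10.83 in DKO_EE. The 95% interval of the Oas2 and other differences was therefore wide, and for Mx1, a dynamin-like GTPase that blocks viruses, it ran from -2.43 to 0.17 in DKO_EE against DKO. Whether the DKO_EE difference changed with castration was tested as an interaction: 0 of 36 passed, 9 had an unadjusted p under 0.05, the median was -0.78, and 0.0119% of all genes were above and 0% below. For DKO_EP 0 of 36 passed that interaction, with 0.0119% of all genes above and 0.0119% below, and 0 passed that of endstage with 12 weeks, with 0.00596% and 0%.

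Castrated tumours were set against intact endstage tumours of the same genotype, and the libraries stood apart as described, so that castration and whatever set the libraries apart cannot be told apart. In DKO 2 of the 36 were higher and 0 lower (7.01% and 6.93% of all genes), in DKO_EE 1 and 0 (8.3% and 8.19%), and in DKO_EP 0 and 0 (4.89% and 4.98%), with medians of 0.76, -0.10 and 0.41. Trim25 was the gene higher in both DKO and DKO_EE. It measured 10.77, 10.93, 10.23 and 10.81 in castrated DKO, 10.20, 10.37, 10.81, 10.20 and 10.41 in DKO_EE, and 10.53, 10.48, 10.33, 10.30 and 10.55 in DKO_EP. In each genotype every castrated mouse was above every intact endstage mouse. The differences were 1.08, 0.64 and 0.59, with an SE of 0.22, 0.16 and 0.21, in DKO, DKO_EE and DKO_EP (adjusted p = 0.000312, 0.00362 and 0.0669), and the last did not pass.
Dtx3l measured 10.50, 10.79, 9.68 and 10.46 in castrated DKO, where the lowest mouse overlapped intact DKO, and was higher by 0.95 (SE 0.27, adjusted p = 0.0131). The DKO count was 9 without castrated DKO replicate 3, the mouse with the lowest score of that group, and 1 without DKO intact endstage replicate 1. The DKO_EE count was 2 without castrated DKO_EE replicate 3. TKO mice with vehicle, set against castrated DKO mice, differed in 0 of the 36 genes (0 at an unadjusted p under 0.05, median 0.10), with 0.304% of all genes higher and 0.262% lower.

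**Figure D5:**
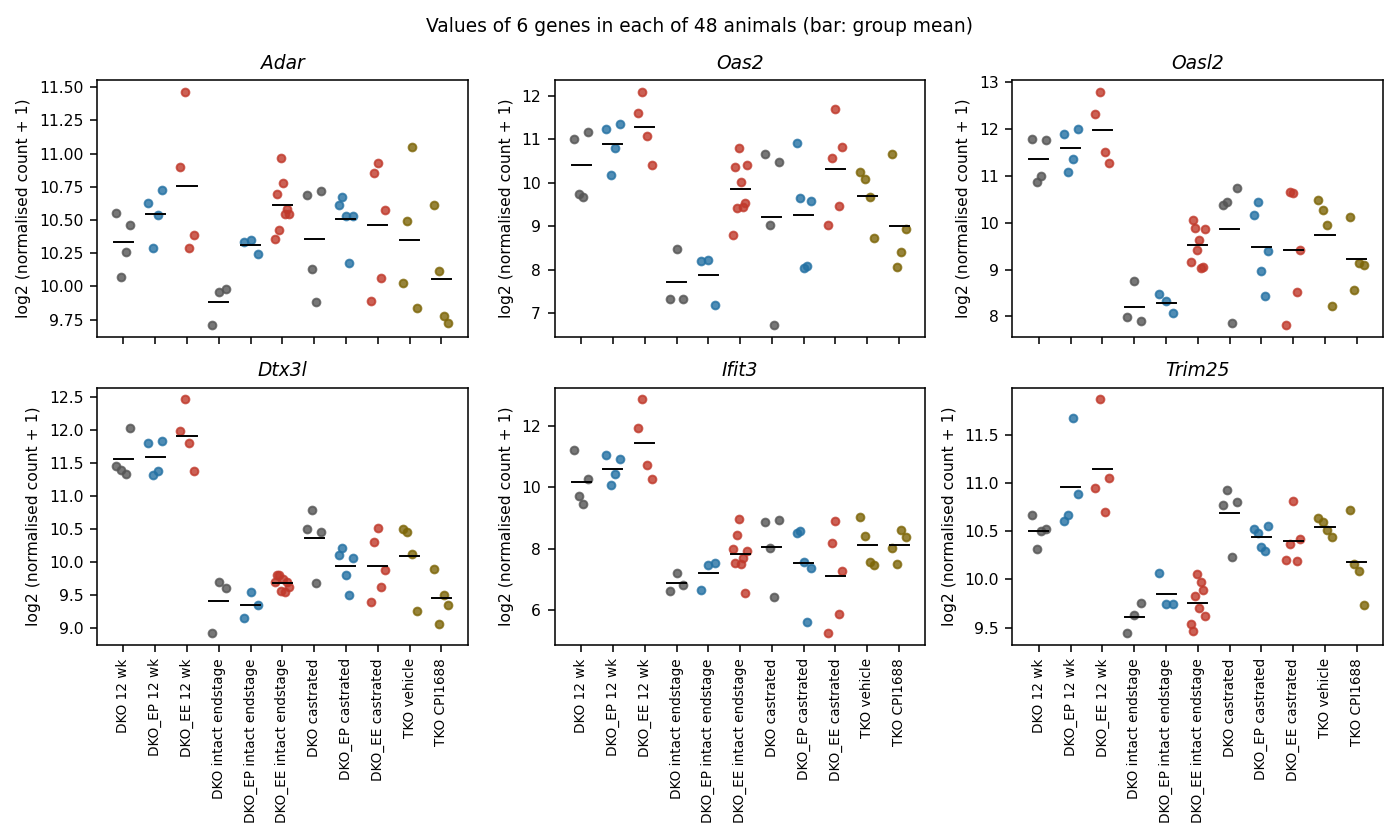
Log2 value of Adar, Oas2, Oasl2, Dtx3l, Ifit3 and Trim25 (vertical axes) in each of the 48 mice by group (horizontal axes), with a bar at the group mean. Adar, Oas2 and Oasl2 show intact endstage DKO_EE mice above DKO, Dtx3l and Ifit3 show the 12-week mice above the endstage mice of their genotype, and Trim25 is lowest at intact endstage.

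The Ezh2 inhibitor was compared with vehicle in castrated TKO mice. With CPI1688 none of the 36 genes passed, 0 had an unadjusted p under 0.05 and 0% of all genes tested passed in either direction. The log2 difference was below 0 for 34 of 36, with a median of -0.51 against 0.02 over all genes. Irf9 had the smallest unadjusted p, with a mean of 8.88 under CPI1688 and 9.57 with vehicle, a difference of -0.69 with a 95% interval from -1.39 to 0.01. Oas2 measured 10.65, 8.07, 8.41 and 8.93 with CPI1688 and 10.26, 10.09, 9.68 and 8.73 with vehicle, and the groups overlapped. The CPI1688 mouse with the highest Oas2 value also had the highest score of its group, 0.20, and the other three had scores of -0.85 to -0.63. Vehicle replicate 1 had a mean of -3.17 over the neuroendocrine marker genes. The other vehicle mice were at 0.88 to 2.07 and those with CPI1688 at 0.22 to 2.06. The count stayed at 0 when any 1 mouse was left out.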

How the data were processed

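Total RNA (miRNeasy Mini Kit) was depleted of ribosomal RNA with RiboErase and made into libraries with an RNA HyperPrep Kit, per the labels' protocols. The submitters' processing notes name FastQC, STAR, RSEM, limma and DESeq2 and the builds GRCm38 and mm10, and their roles and settings, and whether counting used strand, are not given in the sources used here. The deposited table holds log2 values of normalized counts plus 1 (8.92% of values were 0). Undoing the log and scaling gave whole reads within 0.05 for 100% of the values checked, which left out the highest counts. The table has 56 columns, and 2 of them, which no label matches, were not used.

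Animals with 2 libraries (6) were averaged. The labels give each animal an identifier, and p-values measure only the spread between these animals. Because the values are on a log scale, the test was limma 3.58.1 (lmFit and eBayes with trend, R 4.3.3), with Benjamini-Hochberg adjustment over all genes tested and a threshold of 0.05. Genotypes were compared within a setting in a fit of its 3 groups, CPI1688 in a fit of the TKO groups, and stages, castration and interactions in a fit of all 11 groups. Fold changes are on the log2(normalized count + 1) scale and understate the change of low genes. Alternatives included limma-voom on the recovered reads. On simulated data for intact endstage DKO_EE against DKO (16605 genes), 13% of genes with a log2 change of 1 and 90% of those with a change of 2 were recovered.

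The 36 genes and all lists were chosen with earlier results of these data known. By rule, the values of the animals (the lowest, median and highest in the group of 8) are given for up to 4 called genes with the smallest adjusted p in a comparison and for the genes with the highest and lowest SD over the 48 animals. From each other pathway list up to 4 called genes with the smallest adjusted p in a comparison are named, with Irf1, Ifnb1, Ifnar1, Ifnar2 and Ezh2. Oas2 in castrated and TKO groups and the cell markers Gzma, Krt8, Pbsn and Ly6g were chosen after their values were seen. Gene positions are from GENCODE M21 (GRCm38). Python 3.11.15, numpy 2.4.6, pandas 2.3.3, scipy 1.17.1 and matplotlib 3.10.9 were used.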

Additional observations from a re-analysis of the deposited data

Results flagged for a closer look

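In groups of 4 to 10 mice, 108 sets of values (11 genes and the score in 9 groups) were examined for a mouse far from the others, a check that chance alone meets in about 1 of 20 groups, and 4 were found. Gbp3 was 7.94 in the lowest of 8 intact endstage DKO_EE mice. Eif2ak2 was 10.20 in the lowest of 4 DKO_EP mice at 12 weeks. In castrated DKO, Oasl2 was 7.86 and Parp14 9.55 in the lowest of 4 mice, which was in both cases replicate 3, the mouse with the lowest score of that group, -1.33, at an age of 84 weeks.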

How the results depend on the processing

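Across 21 comparisons the number of the 36 genes that passed was recomputed in 134 other settings, not counting those that left out 1 mouse, and stayed within 1.5 times in 123. Most of these comparisons had a count of 0 to begin with, and a count that stayed at 0 is among the 123. This share therefore says little about the comparisons in which genes passed. At intact endstage the 9 genes higher in DKO_EE than in DKO became 5 with limma-voom, 2 when mice with 2 libraries kept only the first, and 0 when all 11 groups were fitted together, when age was a covariate, or without libraries over 10% Lars2. The 3 genes higher than in DKO_EP became 0 in the fit of 11 groups and 0 with the age covariate. The 21 genes that fell in DKO became 9 without 12-week mice over 1% Ttn. For castrated against intact tumours, fitting only the compared groups gave 1 in DKO in place of 2 and 1 in DKO_EP in place of 0, and limma-voom gave 1 in DKO_EP. Leaving out 1 mouse gave 0 to 12 for DKO_EE against DKO and 0 to 6 against DKO_EP at intact endstage. For the change from 12 weeks it gave 13 to 23 in DKO, 18 to 30 in DKO_EE and 17 to 21 in DKO_EP, and for castration 1 to 9 in DKO and 1 to 2 in DKO_EE. In the other comparisons it gave 0 throughout. The causes were not tested. Of 1332 values of single genes 0 changed sign while called and 187 lost their call, and none of 33 recomputed group scores moved by more than 1 SD. The Lars2 and Ttn settings and the fit of 6 intact groups were chosen after seeing the data, and comparisons with intact DKO_EP could not be run without the Lars2-rich libraries. No paired analysis was possible because the labels give the groups no shared replicate numbers. Groups of 3 to 8 mice limit what could be called, and low counts limit Isg15.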
